A study of Saccharomyces cerevisiae with 9 samples.

Results

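The 9 genes described here are those that let budding yeast take up and split maltose, isomaltose and sucrose. They were chosen by gene symbol from the 7122 genes of the deposited table, and all 9 passed the filter on low counts, as did 6150 genes in all. MAL11 and MAL31 encode maltose transporters, MAL12 and MAL32 maltases, MAL13 and MAL33 proteins of the MAL activator family, IMA1 and IMA5 isomaltases, and SUC2 invertase. Poly(A) RNA came from prototrophic Saccharomyces cerevisiae of the CEN.P.K background, in 3 libraries each of pah1Δ (PAH1 deleted), dgk1Δ (DGK1 deleted) and WT. All samples were grown to log phase in minimal synthetic medium with 2% glucose, and the labels name no other sugar. The PAH1 product dephosphorylates phosphatidate to diacylglycerol, and the kinase encoded by DGK1 turns diacylglycerol back to phosphatidate. The labels do not say that the 3 libraries of a genotype came from separate cultures or clones, so p-values measure only the spread between these libraries, which may be technical.

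A MAL locus holds a transporter gene and a maltase gene that are read in opposite directions from a shared intergenic stretch, with an activator gene beside them. In maltose the activator binds that stretch and turns both genes on, and in glucose the repressor Mig1 lowers all parts of the locus. SUC2 is also a textbook target of Mig1. It makes a secreted invertase from a glucose-repressed transcript and an intracellular one that is made constitutively. The isomaltases are relatives of the maltases that cut other alpha-glucosides. Per the descriptions in the deposited table, the MAL13 and MAL33 proteins do not function in S288C, the strain of the reference genome. CEN.PK strains are known to carry MAL loci that differ from those of S288C, and which copies these strains hold was not tested. Reads from copies that the reference lacks may have been counted under the MAL and IMA genes named here, so a value stands for what was assigned to that gene and not for 1 known locus.

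Since the results turn on near-identical copies, the sequences that part or join them are given first, from the RefSeq genome of build R64. The coding spans of MAL12 and MAL32 are both 1755 bases long and differ at 8 positions with no gap, an identity of 99.5%. Counted from 1 at the first base of the MAL12 coding span, 3 of the 8 differences fall close together (C222T, T249C and T258C, MAL12 base first), and bases 212 to 268 are shown with the differing bases in capitals. They lie at chrVII:1076810-1076866 and chrII:805562-805618, both on the plus strand.
MAL12: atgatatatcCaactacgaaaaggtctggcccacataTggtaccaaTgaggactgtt
MAL32: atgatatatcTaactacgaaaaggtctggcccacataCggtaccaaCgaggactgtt

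The stretches between the transporter and maltase genes were alike too. That between MAL11 and MAL12 is 785 bases long and that between MAL31 and MAL32 875 bases, and the 2 align with 71.4% identity. Positions -421 to -280 from the start codons of the maltase genes (chrVII:1076178-1076319 and chrII:804930-805071, plus strand) are shown because both hold the same letters of the MAL activator and Mig1 motifs, in capitals. The activator motif was searched as a pair of short half-sites with 9 bases of any kind between them, and Mig1 as GCGGGG or the same letters with CC, GT or CT in place of the first GC, all on both strands. Both stretches hold 3 activator matches, of which the first 2 overlap each other on opposite strands, and 1 Mig1 match; they align with 96.5% identity.
MAL12: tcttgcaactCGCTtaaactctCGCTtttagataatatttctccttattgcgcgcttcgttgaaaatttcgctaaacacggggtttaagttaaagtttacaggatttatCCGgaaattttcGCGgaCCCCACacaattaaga
MAL32: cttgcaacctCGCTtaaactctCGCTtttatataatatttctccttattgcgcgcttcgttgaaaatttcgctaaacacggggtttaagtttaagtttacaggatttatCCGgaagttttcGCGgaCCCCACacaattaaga

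For SUC2, positions -500 to -390 (chrIX:36885-36995, plus strand) hold 3 matches to Mig1, and for MAL33, positions -288 to -140 (chrII:800235-800383, plus strand) hold 4, again in capitals.
SUC2: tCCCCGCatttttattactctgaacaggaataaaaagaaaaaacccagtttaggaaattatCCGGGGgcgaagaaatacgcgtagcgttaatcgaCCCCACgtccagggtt
MAL33: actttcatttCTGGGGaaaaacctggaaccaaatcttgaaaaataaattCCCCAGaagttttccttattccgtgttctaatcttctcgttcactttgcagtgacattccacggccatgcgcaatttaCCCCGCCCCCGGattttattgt

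In the 500 bases before the start codon, each of the 9 genes had at least 1 Mig1 match, against 22.7% of 6000 promoters of that length. The match of MAL11 and that of MAL12 are 1 site in their shared stretch (chrVII:1076304-1076309), so the 9 windows are not independent. The activator motif was matched before all but MAL13 and IMA5, with most sites at MAL11 and MAL12, and at MAL31 and MAL32, shared within each pair, but it occurs in 49.1% of all promoters. The stress element AGGGG, present in 34.1% of promoters, was matched at 1 site (chrII:804851-804855) that lies in the windows of both MAL31 and MAL32, and not before the other 7 genes. A match is a run of letters and was not tested as a binding site.

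Libraries held 9205454 to 12795803 counts over genes. The deletions showed in the counts: PAH1 had 0 in all 3 pah1Δ libraries and 454 to 535 in WT, and DGK1 had 1, 2 and 1 counts in dgk1Δ, against 1030 to 1502 in WT. WT replicate 1 was far from WT replicates 2 and 3 (chi-square over genes, divided by its degrees of freedom, 53.6 and 39.9), which were close to each other (3.55), and results that move without it are given both ways. The deviations of a library from its genotype's mean ran with gene length or against it in several libraries, with Spearman's rho across 5304 genes, which are not independent replicates, at -0.682 in pah1Δ replicate 2, 0.639 in pah1Δ replicate 3, -0.745 in WT replicate 1 and 0.693 in WT replicate 2. Since deviations from a mean of 3 sum to 0, these values are not independent within a genotype. Among the pah1Δ libraries the widest chi-square was 24.1, between replicates 2 and 3. In dgk1Δ, genes of the first 100 kb of chromosome III and of chromosome IX beyond 300 kb had medians of 0.75 to 1.03 above WT on the log2 scale in bins of 50 kb; none of the 9 genes lies there. The MATa-specific markers (MFA1, MFA2, STE2, STE6, BAR1) summed to 1031 to 1215 CPM (counts scaled to library size after TMM normalization) in pah1Δ, 1752 to 1952 CPM in dgk1Δ and 1978 to 2029 CPM in WT. The MATalpha-specific ones (MF(ALPHA)1, MF(ALPHA)2, STE3, SAG1) summed to 65.1 to 74.2 CPM in pah1Δ, 51.4 to 57.0 CPM in dgk1Δ and 43.3 to 54.6 CPM in WT. In pah1Δ 5 of 5 MATa genes fell and 2 of 4 MATalpha genes rose, where 12.6% of all genes fell and 16.6% rose. In dgk1Δ 1 of these 9 markers passed, where 1.92% of all genes did. It was STE3, higher by 1.02 on the log2 scale (edgeR adjusted p = 0.00504) and overlapping YKL177W. No marker was at 0 in any library, and their part in the results below was not tested.

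Per length, invertase was the most abundant of these mRNAs. The authors' FPKM (fragments per kilobase of transcript, scaled to library size) put the 9 genes in WT in the order SUC2 (52.8 ± 3.93), MAL33 (26.8 ± 3.36), MAL13 (10.3 ± 2.19), IMA1 (10.2 ± 0.643), MAL31 (9.19 ± 0.911), IMA5 (5.26 ± 0.547), MAL11 (3.62 ± 0.516), MAL12 (3.20 ± 0.994) and MAL32 (2.30 ± 0.355; SD, n = 3). The WT libraries overlapped between MAL13 and IMA1, MAL13 and MAL31, IMA1 and MAL31, MAL11 and MAL12, and MAL12 and MAL32. The order within these pairs is thus not settled. In dgk1Δ the order of means was the same, led by SUC2 at 48.4 ± 1.46 FPKM and closed by MAL32 at 2.71 ± 0.235 FPKM. There MAL13 and IMA1, MAL13 and MAL31, IMA1 and MAL31, and IMA5 and MAL11 overlapped. In pah1Δ SUC2 (37.7 ± 2.41 FPKM) and MAL33 (35.1 ± 0.51 FPKM) overlapped, MAL13 (17.5 ± 1.26 FPKM), MAL31 (16.7 ± 2.06), IMA1 (13.1 ± 2.12), MAL11 (12.0 ± 1.96) and MAL12 (11.6 ± 2.50) followed, and IMA5 (4.67 ± 0.205 FPKM) came last, below MAL32 (7.96 ± 1.09 FPKM). Neighbours in that order overlapped except MAL33 and MAL13, MAL31 and IMA1, and MAL32 and IMA5. The levels of MAL12 and MAL32 depend on how reads common to both were counted, which is not given in the sources used here.

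**Figure D1:**
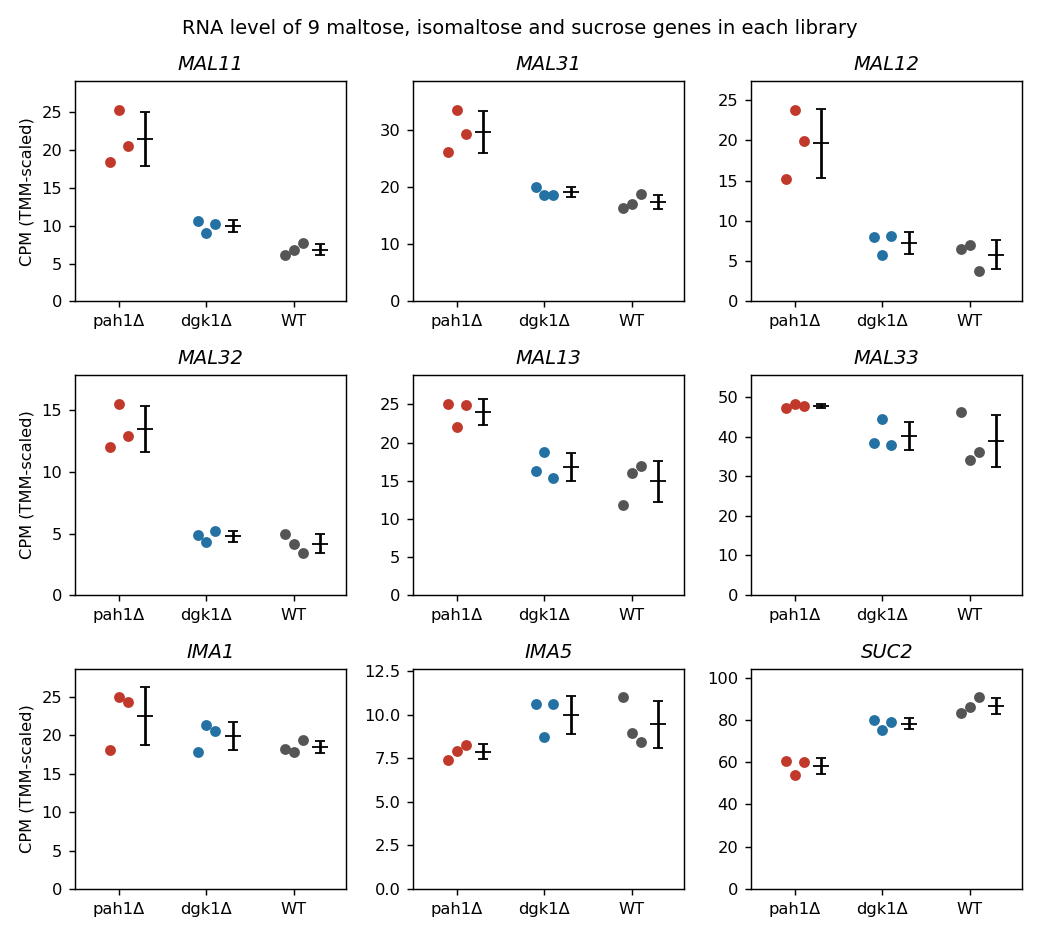
Each panel plots 1 gene, with the level of each library as a dot on a linear axis from 0 (CPM scaled by TMM) for pah1Δ, dgk1Δ and WT from left to right, replicates 1 to 3 in order; the bar beside the dots is the mean ± SD. The pah1Δ dots of MAL11, MAL31, MAL12, MAL32 and MAL13 lie above all others, and those of SUC2 lie at 53.9 to 60.5 CPM, below all others. By narrow gaps, those of MAL33 also lie above all others (lowest 47.2 CPM, against up to 46.2 CPM in WT). Those of IMA5 lie below all others (highest 8.25 CPM, against 8.45 CPM or more in WT).

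In pah1Δ against WT, both maltose transporters, both maltases and 1 activator gene rose and the invertase gene fell. Of the 9 genes 6 passed the test, against 29.2% of all 6150 genes tested; 5 rose and 1 fell (edgeR's quasi-likelihood test, Benjamini-Hochberg adjusted p under 0.05), where 16.6% of all genes rose and 12.6% fell. Of all genes called, 56.9% were higher, and 73.7% when libraries were scaled by size only, which moved the median of all genes by 0.09. Under that scaling the counts for the 9 genes were 6 higher and 1 lower. With RLE size factors in place of TMM 51.9% of all genes called were higher, and by DESeq2 49.8%. Both gave 5 higher and 1 lower among the 9 genes. The median log2 fold change of the 9 genes was 0.70, against 0.00058 over all genes. Without WT replicate 1, 1295 of all genes rose and 1172 fell, against 1023 and 775 with it, and of the 9 genes 6 rose and 1 fell. The shares of all genes called thus depend on that library. In 6 of the 9 every pah1Δ library was above every WT library and in 2 every one was below, which 22% and 17.4% of all genes did. All 6 calls held under each of the 15 or 16 alternatives run for them. In RNA from whole cultures, more cells with an mRNA and more of it per cell cannot be told apart.

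**Figure D2:**
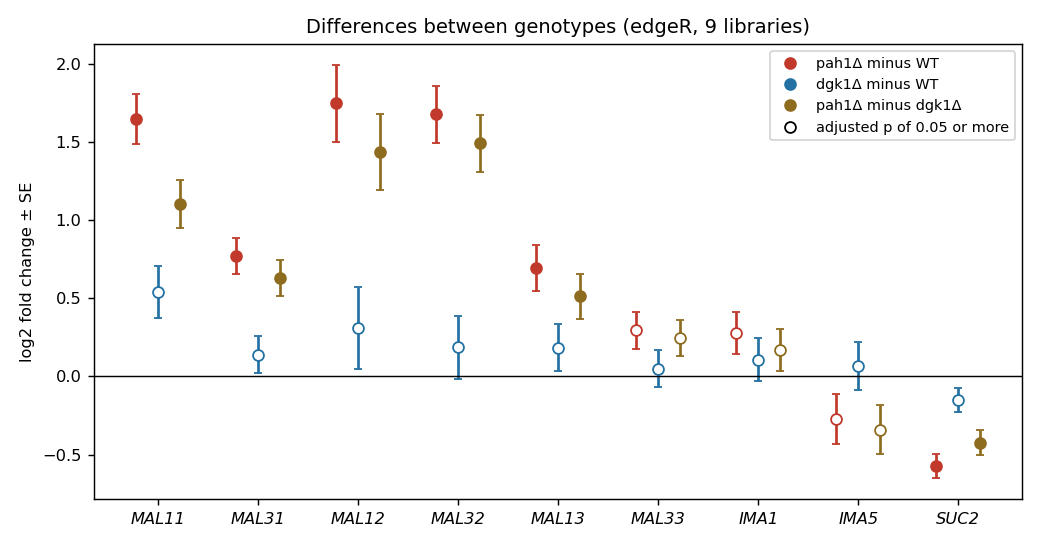
The log2 fold change ± SE of each gene is shown for pah1Δ minus WT (red), dgk1Δ minus WT (blue) and pah1Δ minus dgk1Δ (brown), from a fit over all 9 libraries; open circles did not pass the test. The filled red points run from 1.75 for MAL12 to -0.57 for SUC2, and every blue point is open.

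MAL11 (YGR289C, chrVII:1073963-1075813, minus strand) encodes a transporter of broad range that also carries maltotriose. It had 18.5, 25.4 and 20.6 CPM in the pah1Δ libraries, against 6.13, 6.75 and 7.68 CPM in the WT libraries. The lowest pah1Δ library was thus above the highest WT library by more than the whole range within WT. The rise was 3.14-fold (log2 fold change 1.65, SE 0.159, edgeR adjusted p = 2.9e-05). The table also lists YGR290W, which overlaps 332 bases of MAL11 on the other strand and had 4 to 18 counts, and without strand information reads there cannot be told apart.

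MAL31 (YBR298C, chrII:802631-804475, minus strand), the transporter gene of the other locus, had 26.1, 33.6 and 29.4 CPM in pah1Δ and 16.4, 17.0 and 18.8 CPM in WT. The groups did not overlap, and the rise was 1.71-fold (log2 fold change 0.77, SE 0.117, edgeR adjusted p = 0.000709). MAL11 and MAL31 share no window of 50 bases with each other or with any other place in the genome, in the S288C reference. Reads of MAL loci that CEN.PK strains carry and the reference lacks could still have been assigned to them, which was not tested. MAL11 made up 41.4%, 43.0% and 41.2% of the summed MAL11 and MAL31 counts in pah1Δ, against 27.3%, 28.4% and 29.0% in WT. The share did not overlap between the groups (exact permutation test, two-sided, p = 0.1, the smallest that 3 against 3 allows; 0.214 adjusted over 15 such shares). With both transporters summed the rise was 2.12-fold (edgeR adjusted p = 5.79e-05).

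The maltase genes had the largest fold changes of the 9, with MAL11 within their SE. MAL12 (YGR292W, chrVII:1076599-1078353, plus strand) had 179, 231 and 210 counts in pah1Δ and 77, 68 and 34 counts in WT, or 15.2, 23.8 and 19.9 CPM against 6.56, 7.06 and 3.73 CPM. MAL32 (YBR299W, chrII:805351-807105, plus strand) had 141, 151 and 136 counts in pah1Δ and 58, 40 and 31 counts in WT, or 12.0, 15.6 and 12.9 CPM against 4.94, 4.15 and 3.40 CPM. For both genes the lowest pah1Δ library was above the highest WT library. The rises were 3.36-fold for MAL12 (log2 fold change 1.75, SE 0.248, edgeR adjusted p = 0.000477) and 3.20-fold for MAL32 (1.68, SE 0.184, edgeR adjusted p = 7.49e-05).

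The maltases cannot be separated as well as the transporters. As the printed stretch shows, they differ at few bases, and 66.6% of all windows of 100 bases in either gene are found exactly in the other; with windows of 150 bases the share is 50.5%. Whether reads that match both were dropped or assigned is not given in the sources used here, nor is the read length. MAL12 held 55.9% to 60.7% of the summed maltase counts in pah1Δ and 52.3% to 63.0% in WT, and these ranges overlapped. Summed to 1 value, the maltases rose 3.31-fold (log2 fold change 1.73, SE 0.201, edgeR adjusted p = 0.000118).

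**Figure D3:**
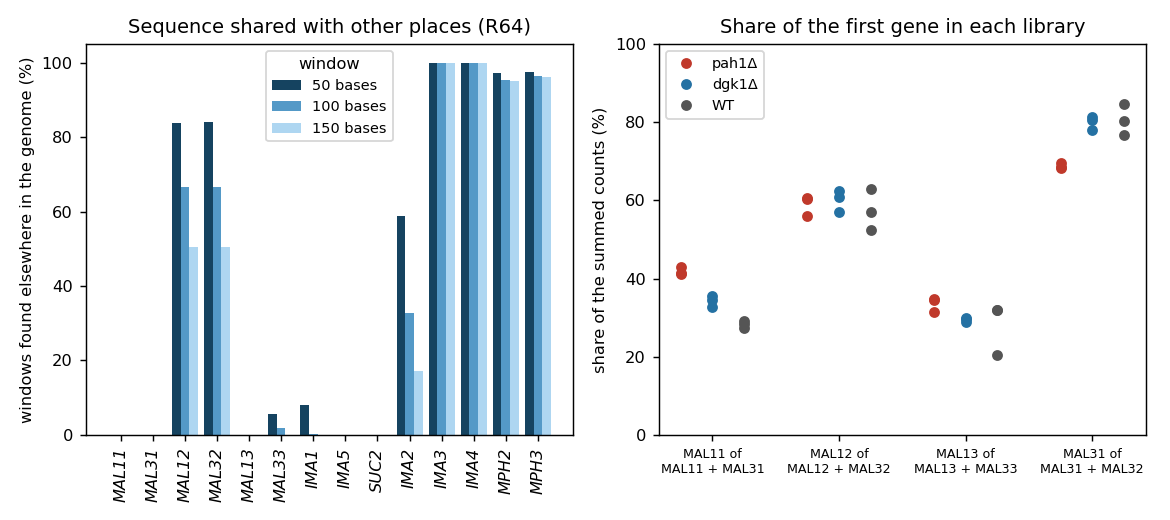
The left panel shows for each gene the percentage of windows of 50, 100 and 150 bases that occur exactly elsewhere in the reference genome: it is 0 for MAL11, MAL31, MAL13, IMA5 and SUC2 and 100 for IMA3 and IMA4. The right panel shows the first gene's percentage of the summed counts of a pair in each library, with pah1Δ, dgk1Δ and WT from left to right; for MAL11 of MAL11 and MAL31 the 3 genotypes do not overlap.

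The transporter and maltase genes of a locus lie back to back. At the MAL3 locus the transporter's share did not overlap between pah1Δ and WT. MAL31 held 68.5%, 68.3% and 69.5% of the summed MAL31 and MAL32 counts in pah1Δ, against 76.8%, 80.4% and 84.7% in WT (exact permutation test, two-sided, p = 0.1, the smallest that 3 against 3 allows; 0.214 adjusted). At the MAL1 locus MAL11 held 50.8% to 54.8% of the MAL11 and MAL12 counts in pah1Δ and 48.3% to 67.3% in WT, and the ranges overlapped (exact permutation test, two-sided, p = 1). The shares at both loci depend on how reads common to MAL12 and MAL32 were counted.

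Of the activator genes, MAL13 (YGR288W, chrVII:1070293-1071714, plus strand) had 25.1, 22.1 and 24.9 CPM in pah1Δ and 11.8, 16.0 and 16.9 CPM in WT. WT replicate 1 was the lowest of the 6 libraries, and the groups did not overlap. The rise was 1.62-fold (log2 fold change 0.70, SE 0.148, edgeR adjusted p = 0.00527). MAL33 (YBR297W, chrII:800523-801929, plus strand) had 47.2, 48.3 and 47.6 CPM in pah1Δ and 46.2, 34.0 and 36.1 CPM in WT, where replicate 1 was close to the pah1Δ libraries. It did not pass the test (log2 fold change 0.29, SE 0.118, edgeR adjusted p = 0.0855), but it did without WT replicate 1 (0.44, adjusted p = 0.00324) and when libraries were scaled by size only (0.39, adjusted p = 0.0194). The 2 activator genes are 71.2% identical; 1.76% of the 100-base windows of MAL33 occur elsewhere, in YPR196W.

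Neither isomaltase gene passed the test in pah1Δ. IMA1 (YGR287C, chrVII:1067222-1068991, minus strand), the main isomaltase gene, had 18.1, 24.9 and 24.4 CPM in pah1Δ and 18.2, 17.9 and 19.4 CPM in WT; pah1Δ replicate 1 lay among the WT libraries. Its log2 fold change was 0.28 (SE 0.138, edgeR adjusted p = 0.158), with a 95% interval of -0.026 to 0.58, and without pah1Δ replicate 1 it was 0.41 (adjusted p = 0.0428). IMA5 (YJL216C, chrX:24341-26086, minus strand), described in the deposited table as the most distant of the IMA family, had 7.41, 7.94 and 8.25 CPM in pah1Δ and 11.0, 8.93 and 8.45 CPM in WT. All 3 pah1Δ libraries were below WT, by little against replicate 3, and the log2 fold change of -0.27 (SE 0.159) did not pass (edgeR adjusted p = 0.232, interval -0.62 to 0.079).

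SUC2 (YIL162W, chrIX:37385-38983, plus strand), the invertase gene, fell. It had 60.5, 53.9 and 60.1 CPM in pah1Δ, against 83.3, 85.9 and 90.6 CPM in WT. The gap between the groups, 60.5 against 83.3 CPM, was wider than the spread within either. Its level in pah1Δ was 0.672 of that in WT (log2 fold change -0.57, SE 0.0789, edgeR adjusted p = 0.000387), and its log2 fold change ran from -0.60 to -0.48 over 15 alternatives. No window of 50 bases in SUC2 occurs elsewhere in the genome. The counts do not separate the transcript of the secreted enzyme from that of the intracellular one, since both start within the same gene.

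In dgk1Δ against WT 0 of the 9 genes passed the test, where 1.92% of all genes did, 1.64% higher and 0.276% lower. At an unadjusted p under 0.05 there was 1, MAL11, and DESeq2 called 0. MAL11 had 10.6, 9.09 and 10.2 CPM in dgk1Δ, against 6.13, 6.75 and 7.68 CPM in WT. The libraries did not overlap, but the log2 fold change of 0.54 (SE 0.165, interval 0.18 to 0.91) had an edgeR adjusted p of 0.234. SUC2 had 80.0, 75.2 and 79.1 CPM in dgk1Δ, each below the WT libraries, with a log2 fold change of -0.15 (SE 0.078, interval -0.32 to 0.023, edgeR adjusted p = 0.653). These were the 2 genes without overlap, 1 in each direction, where 9.15% of all genes were wholly higher and 7.19% wholly lower. The adjusted p-values do not show that levels in dgk1Δ and WT were alike: for MAL12 the 95% interval ran from -0.27 to 0.89 and for MAL32 from -0.25 to 0.63 on the log2 scale.

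The share of MAL11 among the transporter counts was 34.5%, 32.8% and 35.5% in dgk1Δ, above each WT library (27.3% to 29.0%) and below each pah1Δ library (41.2% to 43.0%). The other 7 genes overlapped between dgk1Δ and WT. MAL12 had 8.03, 5.72 and 8.07 CPM in dgk1Δ, against 6.56, 7.06 and 3.73 CPM in WT, and MAL32 had 4.86, 4.31 and 5.21 CPM in dgk1Δ, against 4.94, 4.15 and 3.40 CPM in WT. For MAL12 2 of the 3 dgk1Δ libraries, and for MAL32 1 of the 3, lay above all WT libraries. MAL13 had 16.3, 18.8 and 15.3 CPM in dgk1Δ and 11.8, 16.0 and 16.9 CPM in WT, and MAL31 had 20.1, 18.6 and 18.6 CPM in dgk1Δ and 16.4, 17.0 and 18.8 CPM in WT. MAL33 lay at 37.8 to 44.3 CPM in dgk1Δ and 34.0 to 46.2 CPM in WT, IMA1 at 17.8 to 21.3 CPM in dgk1Δ and 17.9 to 19.4 CPM in WT, and IMA5 at 8.70 to 10.6 CPM in dgk1Δ and 8.45 to 11.0 CPM in WT. All but SUC2 had a log2 fold change above 0, from 0.05 for MAL33 (SE 0.119) to the 0.54 of MAL11.

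Set directly against dgk1Δ, the same 6 genes passed in pah1Δ, 5 higher and 1 lower, where 25.1% of all genes passed, 14.2% higher and 10.8% lower. Of all genes called here 56.8% were higher, 71.2% with libraries scaled by size only, 55.6% with RLE size factors and 53.6% by DESeq2. In 6 of the 9 every pah1Δ library was above every dgk1Δ library and in 2 every one was below, which 25.2% and 23.4% of all genes did. This comparison shares the pah1Δ libraries with the first, so the 2 are not independent. MAL32 was higher by 1.49 (SE 0.18, edgeR adjusted p = 0.000151), MAL12 by 1.44 (SE 0.241, 0.00145), MAL11 by 1.11 (SE 0.152, 0.00037) and MAL31 by 0.63 (SE 0.116, 0.00246). MAL13 was higher by 0.51 (SE 0.145, edgeR adjusted p = 0.0245), a call that was lost when pah1Δ replicate 1 or 3 or dgk1Δ replicate 1 or 3 was left out (adjusted p 0.0899, 0.0727, 0.0886 and 0.0918). SUC2 was lower by 0.42 (log2 fold change -0.42, SE 0.0789, edgeR adjusted p = 0.00278), with 53.9 to 60.5 CPM in pah1Δ and 75.2 to 80.0 CPM in dgk1Δ. MAL33 (0.25, edgeR adjusted p = 0.158) and IMA5 (-0.34, 0.147) did not overlap between these groups and did not pass, and IMA1 (0.17, 0.405) overlapped. MAL33 did pass when only these 2 genotypes were fitted (0.25, edgeR adjusted p = 0.0476). The sum of both activator genes passed too (0.34, edgeR adjusted p = 0.0214), but it includes MAL13, which passed by itself.

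Of 7 relatives of these genes outside the set, 5 had enough counts to be tested. In pah1Δ against WT 1 of these 5 passed, where 29.2% of all genes did. IMA3 and IMA4 are identical to each other over all 1770 bases. IMA3 had 0 counts in all 9 libraries and IMA4 had 0 or 1. By counting error alone a 0 allows up to 3 assigned counts. All of their 100-base windows are shared, so if reads that match several places were dropped, these counts set no upper limit on either mRNA. MPH2 and MPH3, maltose transporter genes nearly identical to each other, had 12 to 20 and 13 to 39 counts over the 9 libraries, and neither passed in any comparison. IMA2 had 10.05, 10.9 and 7.68 CPM in pah1Δ and 8.43, 6.95 and 7.35 CPM in WT (log2 fold change 0.33, SE 0.171, edgeR adjusted p = 0.18). Of its 100-base windows 32.7% occur elsewhere, in IMA3, IMA4 and IMA1, so its values too depend on how shared reads were counted. YPR196W, a relative of the activator genes, rose in pah1Δ, with 27.4, 25.6 and 24.8 CPM against 21.4, 21.8 and 18.3 CPM in WT (0.34, SE 0.107, edgeR adjusted p = 0.0358). ZNF1, a zinc cluster regulator of respiratory growth, had 18, 6 and 21 counts in pah1Δ and 5, 6 and 7 counts in WT and did not pass (1.22, SE 0.517, edgeR adjusted p = 0.102). In dgk1Δ against WT none of the 5 relatives tested passed, where 1.92% of all genes did.

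Of the 9 genes 8 lie within 30 kb of a chromosome end, from 6.08 kb (MAL32) to 24.3 kb (IMA5), and SUC2 lies 37.4 kb from one. Among the other 326 tested genes within 30 kb of an end, 82 rose (25.2%) and 31 fell (9.51%) in pah1Δ, with a median log2 fold change of 0.16. Of the 8 genes of this set there, 5 rose and 0 fell. In dgk1Δ against WT, 26 of the 326 rose (7.98%) and 8 fell (2.45%), and 0 of the 8 passed.

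**Figure D4:**
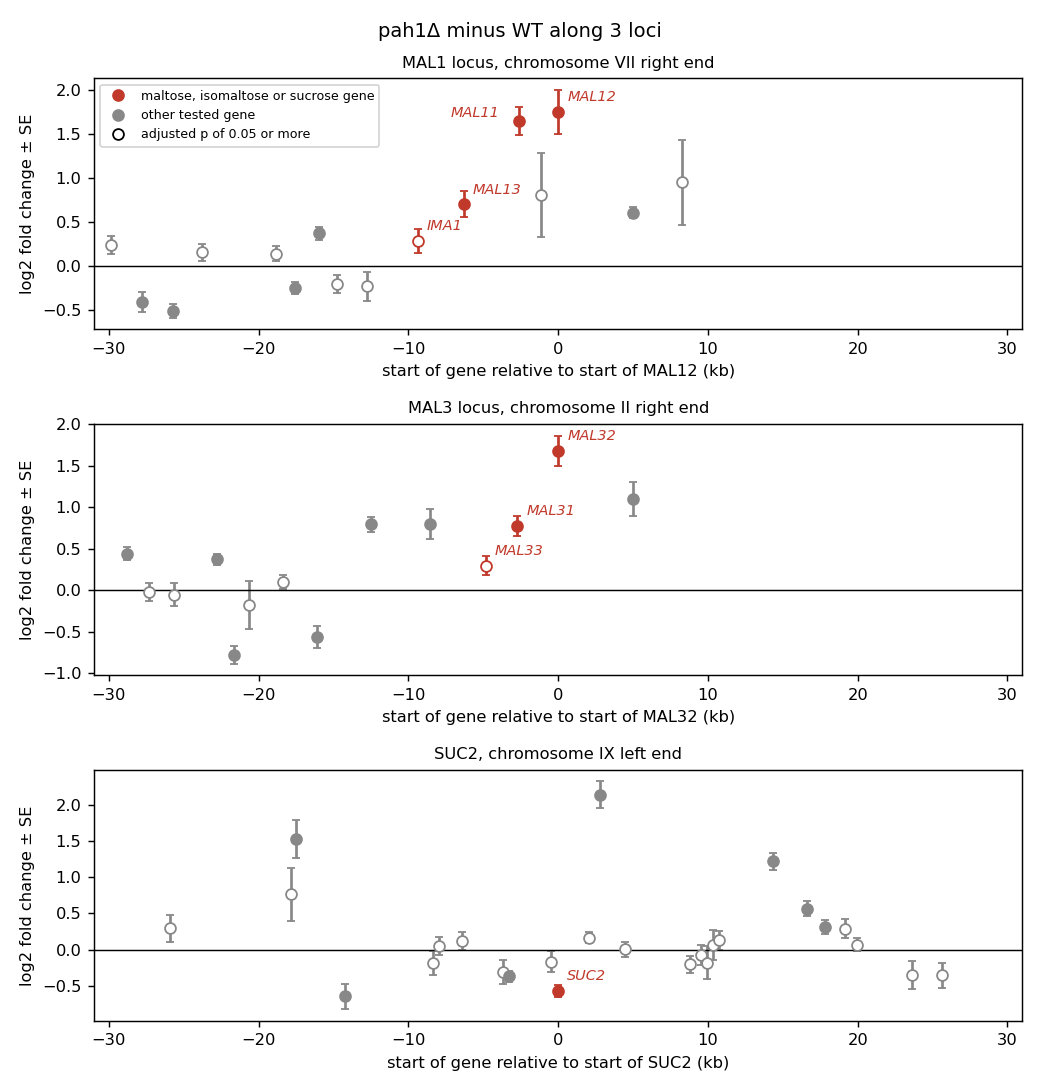
The log2 fold change ± SE of pah1Δ minus WT is plotted for every tested gene against the distance of its start from that of MAL12, MAL32 or SUC2, in kb; red points are genes of the set and open circles did not pass. MAL12 (1.75) and MAL32 (1.68) are the highest points of their panels, and beside SUC2 (-0.57) lies POT1 (2.13).

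Genes near the set moved in both directions. At the end of chromosome VII, COS6, of the same repeated family as COS2, rose by 0.60 (edgeR adjusted p = 6.84e-05). It starts 4.99 kb beyond the start of MAL12. BIO2 (-0.23) and ZUO1 (-0.20), on the other side of IMA1, did not pass. On chromosome II, COS2, a member of a repeated family, rose by 1.10 (SE 0.205, 0.00256) on the far side of MAL32, PCA1 rose by 0.79 (8.57e-05), and SUL1 (-0.57) and CTP1 (-0.78) fell (0.00807 and 0.000397); these 7 neighbours were chosen after their values were seen. Beside SUC2, POT1, the peroxisomal thiolase gene, rose by 2.13 in pah1Δ (SE 0.186, edgeR adjusted p = 1.56e-05), and YIL165C fell by 1.11 in dgk1Δ (SE 0.171, 0.00397). Near IMA5, YJL213W rose by 1.58 in pah1Δ (SE 0.106, 2.59e-06). Over the 10 nearest genes (5 on each side) with a mean of at least 10 CPM, the median around SUC2 was -0.036 in pah1Δ and -0.11 in dgk1Δ. Around the MAL and IMA genes, where fewer genes remain up to the chromosome end, the other genes of the set were left out; the medians in pah1Δ then lay between -0.24 (4 genes around MAL31) and 0.096 (3 genes around MAL32), over overlapping sets of 3 to 6 genes.

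Of 28 genes that sense glucose or carry its repression, 5 rose and 2 fell in pah1Δ, where 16.6% of all genes rose and 12.6% fell, so these counts are near or below the background. Their median was -0.024, against 0.00058 over all genes. TOS3, a kinase that activates Snf1, had 55.2, 53.2 and 61.9 CPM in pah1Δ, against 20.8, 20.0 and 18.8 CPM in WT. It rose by 1.51 (SE 0.0921, edgeR adjusted p = 1.55e-06), with no overlap of the libraries. SIP2, a subunit of the Snf1 kinase complex, rose by 0.60 (SE 0.113, 0.00274) and REG2, a regulatory subunit of the Glc7 phosphatase, by 1.31 (SE 0.275, 0.00502, with 36, 20 and 28 counts in pah1Δ and 13, 10 and 9 in WT, and overlapping YBR051W). MIG3, a relative of Mig1, fell by 0.58 on the log2 scale (SE 0.0973, edgeR adjusted p = 0.0013), with 19.2, 18.2 and 19.5 CPM in pah1Δ and 29.1, 30.1 and 26.1 CPM in WT. MIG1, named after its values were seen, had 65.9, 60.4 and 70.9 CPM in pah1Δ and 55.7, 84.5 and 81.2 CPM in WT and did not pass (-0.16, SE 0.143, 0.435).

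Against dgk1Δ, 4 of the 28 were higher in pah1Δ and 2 lower, where 14.2% and 10.8% of all genes were, again near or below the background. Among them were TOS3 (1.10), MIG2 (0.51, edgeR adjusted p = 0.00603), SIP2 (0.50) and MIG3 (-0.59). In dgk1Δ against WT 0 of the 28 passed, where 1.92% of all genes did. TOS3 had 26.4, 27.3 and 25.5 CPM in dgk1Δ, between the pah1Δ and the WT libraries. Of 12 genes of the SWI/SNF remodeller, which opens chromatin at SUC2, 1 fell in pah1Δ (median -0.095), ARP9 by 0.34 (SE 0.0667, edgeR adjusted p = 0.00361), and 0 rose, counts below the shares of all genes (12.6% and 16.6%). Against dgk1Δ, ARP9 (-0.24) and ARP7 (-0.25) were lower, 2 of the 12 where 10.8% of all genes were.

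Of 3 genes whose enzymes phosphorylate the hexoses that maltase and invertase release, 2 rose in each deletion strain, the hexokinase gene HXK1 and the glucokinase gene GLK1, where 16.6% of all genes rose in pah1Δ and 1.64% in dgk1Δ. The other, HXK2, named after its values were seen, averaged 987 ± 29.6 CPM in pah1Δ, 1103 ± 36.9 CPM in dgk1Δ and 1136 ± 46.8 CPM in WT (SD, n = 3) and did not pass (-0.20 in pah1Δ and -0.04 in dgk1Δ, edgeR adjusted p = 0.0579 and 0.938). HXK1 had 62.7, 70.8 and 63.1 CPM in pah1Δ, 19.9, 17.6 and 18.2 CPM in dgk1Δ and 12.5, 9.65 and 9.33 CPM in WT (log2 fold change 2.63 in pah1Δ and 0.81 in dgk1Δ, edgeR adjusted p = 2.71e-07 and 0.00496). GLK1 rose by 1.70 in pah1Δ and 1.42 in dgk1Δ (edgeR adjusted p = 1.85e-07 and 3.95e-06); it lies in the part of chromosome III that was raised in dgk1Δ, where the 10 nearest genes had a median of 1.05. Against dgk1Δ both were higher in pah1Δ, HXK1 by 1.82 and GLK1 by 0.28 (edgeR adjusted p = 2.24e-06 and 0.0166). HXK1 overlaps YFR052C-A and GLK1 overlaps YCL042W. Of 7 galactose genes 2 rose in pah1Δ, GAL3 by 0.85 (SE 0.191, edgeR adjusted p = 0.00737) and GAL4 by 0.26 (SE 0.0824, 0.039), and 0 fell (median 0.11), against 16.6% and 12.6% of all genes. Of 6 chaperone genes whose products are known to hold or mature MAL activator proteins, 3 rose in pah1Δ and 0 fell (median 0.13), against the same shares of all genes: HSP82 by 1.41 (SE 0.0961, 2.85e-06), SSA1 by 1.30 (SE 0.156, 0.000139, with the near-identical copy SSA2 and overlapping YAL004W) and STI1 by 0.35 (SE 0.0604, 0.00161). Windows shared with other genes were not searched for any chaperone gene, HSP82 and HSC82 among them. In dgk1Δ against WT 0 of the 7 galactose genes and 0 of the 6 chaperone genes passed, where 1.92% of all genes did. Against dgk1Δ, GAL3 (0.77, edgeR adjusted p = 0.0127), GAL4 (0.33, 0.0144), HSP82 (1.05, 2.04e-05) and SSA1 (0.87, 0.00204) were higher in pah1Δ and SSA2 was lower (-0.49, 0.00171).

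Over the 9 libraries, the genes most like each member were sought among those with a mean of at least 10 CPM, by Pearson's r of log2 CPM with a prior count of 2, as a description: the points share genotype, library and depth. The profile nearest to MAL11 was OSW2 (r = 0.986), followed by YOR062C (0.982) and MAL31 (0.981). MAL12 was most like CUP2 (0.977), IPK1 (0.974) and GRS2 (0.974), and MAL13 like TDP1 (0.981), YGR237C (0.980) and GID8 (0.979). After MAL11, the profiles nearest to MAL31 were SPS19 (0.973) and ATG3 (0.971). MAL33 was most like RCN1 (0.962), YDL009C (0.949) and YHR180W (0.939). For IMA1 the likeness was lower, with NTG2 (0.901), ARA2 (0.872) and PSO2 (0.855). SUC2 was most like YGR283C (0.994), YDR341C (0.990) and UTR2 (0.988). Among the members, MAL12 and MAL32 had r = 0.974, and SUC2 ran opposite to MAL32 (r = -0.974) and MAL11 (r = -0.957). MAL32 and IMA5, with means of 7.48 and 9.10 CPM, fell under the limit and were not searched.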

How the data were processed

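Per the submitters' processing notes, HISAT2 2.2.1, HTSeq 0.6.1 and build R64 were used. The sources used here do not give the strand setting, read length or treatment of reads that match several places. The authors deposited whole-number read counts per gene and FPKM (scaled to gene length and library size), with 1 column per library and 0 unused columns; 4 lines were empty. Counts were fitted with edgeR 4.0.16 in R 4.3.3: filterByExpr, TMM, a robust quasi-likelihood fit over all 9 libraries, each genotype having its own mean (6 residual degrees of freedom), Benjamini-Hochberg over 6150 genes. CPM are TMM-scaled; SE is the absolute log2 fold change over the root of F. The fit was tested on simulated counts with the same spread for every gene and no trend with gene length. Unlike these libraries, the simulated ones held no such trend, so that test does not show how the fit behaves here. Shared windows and alignments came from the RefSeq genome of R64 (Biopython 1.88); all 16 MAL, IMA, SUC2, MPH and activator genes had the same start and end there as in the table. Alternatives used DESeq2 1.42.0 and, on log2(FPKM + 1) and log2(FPKM + 0.1), limma 3.58.1. Intervals cover counting error and replicate spread as fitted; a floor of 3 counts covers counting error only. No 2 libraries of a genotype agreed within sampling noise. The members, lists, tests and rule for named genes (all members and relatives, up to 4 called genes of each other list by adjusted p, near genes called with a log2 fold change of at least 1 in size) were chosen with earlier results of these data known.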

Additional observations from a re-analysis of the deposited data

How the results depend on the processing

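Counts of the 9 genes called stayed within 1.5 times the value given under every alternative: 5 to 7 for pah1Δ against WT, 0 for dgk1Δ against WT and 5 to 7 for pah1Δ against dgk1Δ; leaving out single libraries gave 6 to 7, 0 and 5 to 6. Without pah1Δ replicate 1 or dgk1Δ replicate 2, 1026 and 1024 of all genes were called between pah1Δ and dgk1Δ, against 1542. In pah1Δ, MAL33 also passed by limma on FPKM (log2 difference 0.39 and 0.40). Signs turned for values near 0 in dgk1Δ: MAL33 without WT replicate 2 (-0.048) or 3 (-0.0096) or dgk1Δ replicate 2 (-0.03), and IMA5 without WT replicate 3 (-0.014); leaving out single libraries gave up to 0.20 for MAL33 and 0.19 for IMA5. Summing IMA1 to IMA5, which replaces IMA5 by its family, gave 0.16 for pah1Δ against WT and 0.11 against dgk1Δ in place of the negative values of IMA5. Activator genes summed gave 0.42 (edgeR adjusted p = 0.00682) and 0.34 (0.0214). Deviations of same-numbered libraries correlated at -0.51 to 0.36 and others at -0.49 to 0.60, and 2 of 9 libraries correlated best with their own number. The deviations followed gene length in several libraries and sum to 0 within a genotype. These correlations therefore cannot decide whether replicate numbers mark paired libraries. With the replicate block 1448, 106 and 1218 of all genes were called, against 1798, 118 and 1542, and MAL13 against dgk1Δ had 0.52 (adjusted p = 0.0504). The cause of these changes was not tested. The maltase genes had 31 to 77 counts in WT, which limits their precision, and the filter at a mean of 10 CPM removes MAL32 and IMA5.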
